A study of Mus musculus with 6 samples.

Results

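Immediate-early and acute stress genes are transcripts that cells raise quickly after a stimulus or an injury, and their levels were compared between control and Vhlh knockout mouse islets. The list of 39 names came to 38 genes, because Cyr61 and Ccn1 name the same gene, and all 38 were found among the 18193 genes that have a probe set with a single symbol. Where a gene had several probe sets, the brightest on average over the 6 arrays (log2 scale) stood for it, and no measured difference between genotypes entered the choice. Testing required signal over the median of the array on 3 or more arrays, a condition met by 35 of the 38 members and by 11703 genes in all.

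The samples were total RNA of isolated pancreatic islets, hybridised to Affymetrix mouse arrays as 3 control and 3 Vhlh knockout samples. The labels name RIP2-Cre and Vhlh(fl/fl) as the model on all 6 samples and set the groups apart as control and VhlhKO, without saying which of these alleles the controls carry. RIP2-Cre is Cre recombinase driven by a rat insulin promoter, so the deletion is directed at beta cells, while alpha, delta, vascular and stromal cells of the islet are meant to keep the gene. Vhlh, named Vhl in current annotation, encodes the protein that marks hypoxia-inducible factors (HIF) for degradation in the presence of oxygen. Arrays numbered 01, 02 and 03 came in both genotypes from males of 26 weeks, females of 20 weeks and males of 18 weeks, so number, age and recorded sex cannot be told apart. The design text speaks of 3 batches of islets per genotype, without the number of mice in each, and p-values rest on the spread among them.

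Products of immediate-early genes are mostly short-lived transcription factors and feedback regulators whose mRNA is induced without new protein synthesis, through kinase cascades that act on the serum response factor and on cyclic AMP response element-binding protein. Fos and Jun proteins pair to form the dimeric factor AP-1, Egr and Klf proteins are zinc-finger factors, and Dusp phosphatases and Zfp36 shut the response down. Heat-shock genes are induced by unfolded cytosolic protein through heat shock factor. In beta cells, glucose and agents that raise cyclic AMP or calcium are known inducers of Fos, Egr1 and Nr4a1, and in many tissues handling and enzymatic digestion induce these genes too.

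None of the 35 tested members passed an adjusted p of 0.05 in limma, where 2 of 11703 genes did, 0.0171% of those tested. Most members nevertheless had higher signal in the knockout samples: 29 of 35 had a positive log2 difference, 82.9%, where 50.8% of all genes tested did. Their median log2 difference, knockout minus control, was 0.47, with quartiles at 0.15 and 0.88, against 0.005 over all genes tested. The smallest adjusted p of a member was 0.99988, and 0.506 with the replicate number as a block. With that block 2 genes again passed, 0.0171% of all, and no member was among them.

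At looser limits the share of members that were higher exceeded that of all genes, while for lower members it did not do so throughout. At an unadjusted limma p under 0.05, 4 members were higher (Klf6, Ier3, Fosl2 and Zfp36) where 2.03% of all genes were, and 1 was lower (Klf10) where 0.53% were. With the replicate block 13 members were higher, where 3.68% of all genes were, and 1 was lower, where 1.31% were. The groups were fully separated for 5 higher members (the same 4 and Gadd45a), against 4.02% of all genes, and for 1 lower member (Klf10), against 2.69%. The knockout signal was the higher of the pair in 3 of 3 pairs for 14 members and the lower in 3 of 3 for 2, where 13.8% and 10.9% of all genes did so. The remaining 19 went both ways. These members were chosen with earlier results of the same arrays known, so their counts are descriptions. The count of 4 moved with the arrays used: without both arrays numbered 03, 1 member was higher at an unadjusted p under 0.05, where 1.52% of all genes were, and 25 of 35 differences were positive. Leaving out control 01, 02 or 03 gave 1, 8 and 6 such members, where 1.31%, 2.32% and 2.64% of all genes were. Leaving out knockout 01, 02 or 03 gave 7, 3 and 2, where 3.05%, 2.21% and 1.24% of all genes were.

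**Figure D1:**
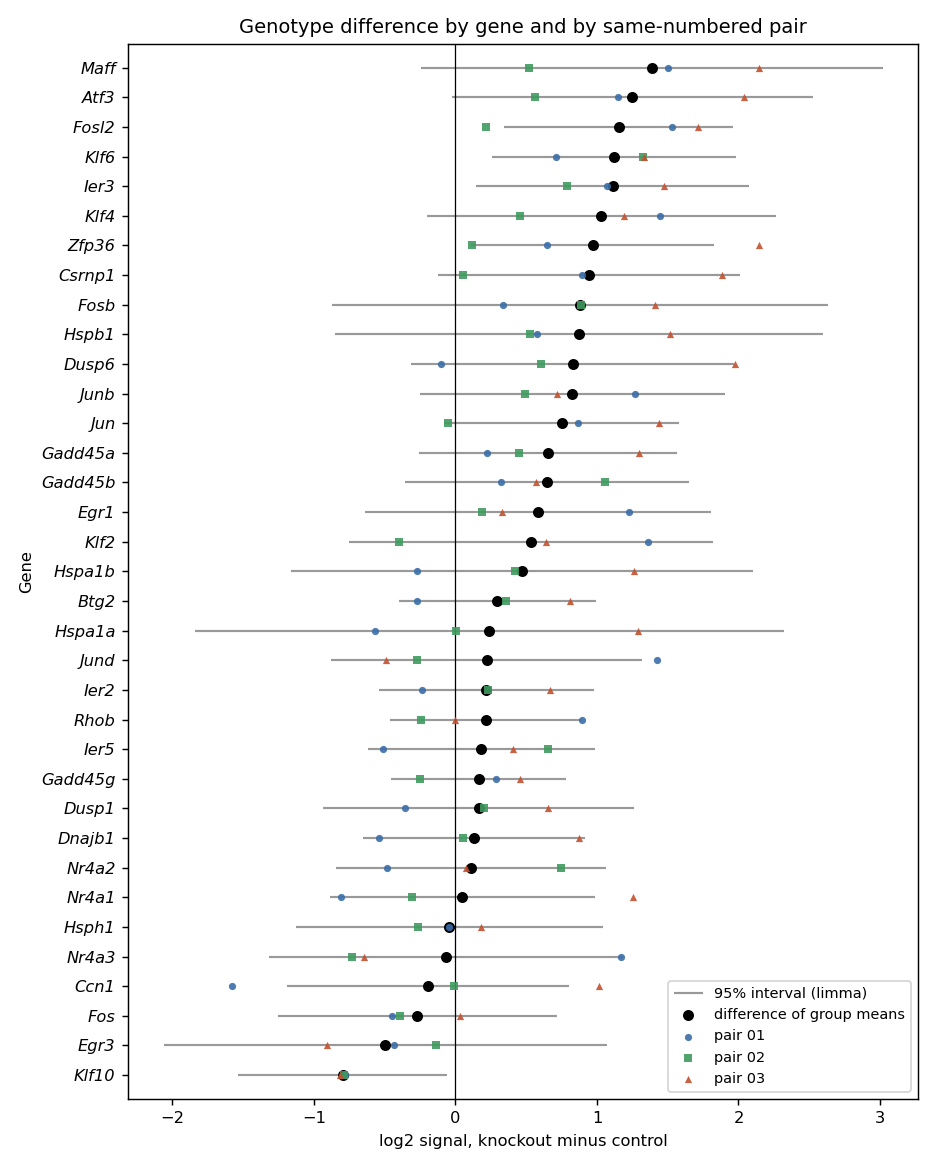
Log2 difference, knockout minus control, for each of the 35 tested members, ordered by size; black points are differences of group means, grey lines their 95% limma intervals, and coloured symbols the same-numbered pairs. Klf10 at the bottom has all its pairs near -0.8, and the triangles of pair 03 lie farthest to the right for many genes at the top.

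Klf10 was the member with the most even difference and the 1 that went down without overlap. It encodes a zinc-finger repressor first known as a gene induced by transforming growth factor beta. Its signals were 449, 679 and 434 on control arrays 01 to 03 and 261, 394 and 246 on knockout arrays 01 to 03. Each knockout signal lay below every control signal, and the array numbered 02 was the highest of each genotype. Controls averaged 8.99 ± 0.36 and knockouts 8.20 ± 0.37 (log2 ± SD, n = 3 each), a 1.74-fold lower level in knockouts. This is a log2 difference of -0.80 (SE 0.33, 95% interval from -1.53 to -0.06). Within the pairs it was -0.78, -0.78 and -0.82. Its unadjusted limma p was 0.0376, and 0.0139 with the block (adjusted 0.891).

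Of the AP-1 group, 8 of 9 members were tested, 7 had higher knockout means, and their median log2 difference was 0.85. Fosl2, which encodes the Fos relative Fra-2, gave 372, 614 and 490 on control arrays 01 to 03 and 1075, 714 and 1605 on knockout arrays. All knockout signals exceeded all control signals, with knockout 02 only a little above control 02. The means were 8.91 ± 0.36 in controls and 10.07 ± 0.58 in knockouts (log2 ± SD, n = 3 each), a 2.22-fold difference, with a log2 difference of 1.15 (SE 0.36). The dimmer of its bright probe sets differed by 0.09 only. Maff, a small Maf protein that binds DNA but lacks an activating domain, had the largest log2 difference of all tested members at 1.39 (SE 0.72). Its signals were 420, 537 and 77.8 in controls and 1186, 771 and 344 in knockouts. Knockout 03 was lower than controls 01 and 02, so the groups overlapped, although the knockout was higher in each pair, by 1.50, 0.52 and 2.15. Without control 03 the Maff difference was 0.52, below that of several other members, and without control 02 it was 1.91. Atf3, a stress-induced factor of the ATF family, gave 222, 782 and 451 in controls and 491, 1158 and 1854 in knockouts. Its log2 difference was 1.25 (SE 0.56), it was higher in each pair, and the groups overlapped through knockout 01.

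The founding members of AP-1 did not share a direction. Fos was the brightest member on these arrays, rank 185 of 11703 genes by mean log2 signal, with 10498, 18257 and 23617 in controls and 7692, 13906 and 24193 in knockouts. In both genotypes its signal was lowest on the array numbered 01 and highest on 03, and the log2 difference was -0.27 (SE 0.44, 95% interval from -1.25 to 0.72). Jun gave 1503, 3418 and 1717 in controls and 2744, 3293 and 4660 in knockouts, a log2 difference of 0.75 (SE 0.37), with 0.29 from its second bright probe set. Control 02 exceeded the knockout sample of the same number, and knockout 03 had the top Jun signal. Fosb, a Fos relative induced with it, differed by 0.88 (SE 0.78) and Junb by 0.83 (SE 0.48), both higher in 3 of 3 pairs, and both overlapped between groups. Without knockout 03 the Fosb difference was 0.08, and without control 01 that of Junb was 0.38. For Fosb the spread between arrays was wide, from 113 on control 01 to 1291 on knockout 03. Jund, the least inducible Jun gene, differed by 0.22 (SE 0.49), with 1.42 in pair 01 and negative values in the other pairs.

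Among the zinc-finger factors 6 of 7 were tested, 4 of them with higher knockout means. Klf6, a factor induced by tissue injury, gave 382, 595 and 541 in controls and 625, 1489 and 1362 in knockouts. The knockout signals all lay above the control signals, although knockout 01 stood just above control 02. The means were 8.96 ± 0.34 and 10.08 ± 0.69 (log2 ± SD, n = 3 each), a 2.18-fold difference with a log2 difference of 1.12 (SE 0.38) and a 95% interval from 0.26 to 1.98. The pairs differed by 0.71, 1.32 and 1.33, and a second bright probe set by 0.97. In limma its unadjusted p was 0.0161, and 0.00228 with the block (adjusted 0.513). Klf4, a factor of epithelial and endothelial cells among others, gave 801, 2068 and 2952 in controls and 2179, 2843 and 6725 in knockouts. In both genotypes number 01 was lowest and number 03 highest, each knockout exceeded the control of its number, and the log2 difference was 1.03 (SE 0.55), or 0.49 without control 01. Egr1, which responds to growth factors and glucose, gave 4390, 6127 and 17060 in controls and 10276, 6974 and 21426 in knockouts. It was higher in 3 of 3 pairs, by 1.23, 0.19 and 0.33, and both arrays numbered 03 exceeded all the others. The Egr1 log2 difference of 0.58 had a standard error of 0.54, and it was 0.13 without knockout 03 and 1.15 without control 03.

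Klf2, a flow-responsive factor of endothelium, differed by 0.53 (SE 0.57) and was lower in pair 02. Egr3 was the dimmest tested member, with 55.0, 166 and 157 in controls and 40.7, 150 and 83.4 in knockouts, partly below the array medians of 102 to 123. It was lower in each pair and its log2 difference was -0.49 (SE 0.69). Too dim for the filter, Egr2 read 49.5, 79.2 and 21.6 in controls and 91.5, 96.8 and 780 in knockouts. Here 1 array, knockout 03, lay above its median, and the two-sided exact permutation p of 0.1 is the smallest that 3 arrays against 3 allow. The orphan nuclear receptors Nr4a1, Nr4a2 and Nr4a3, quick targets of cyclic AMP in beta cells, showed no common direction, with log2 differences of 0.05, 0.11 and -0.07 and 95% intervals that reached from -0.89 to 0.98, from -0.84 to 1.07 and from -1.32 to 1.18. Nr4a3 signals were 57.6, 152 and 156 in controls and 130, 91.6 and 99.2 in knockouts, all near the array medians and overlapping. For Nr4a2 the bright probe sets ranged from -0.84 to 0.57.

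**Figure D2:**
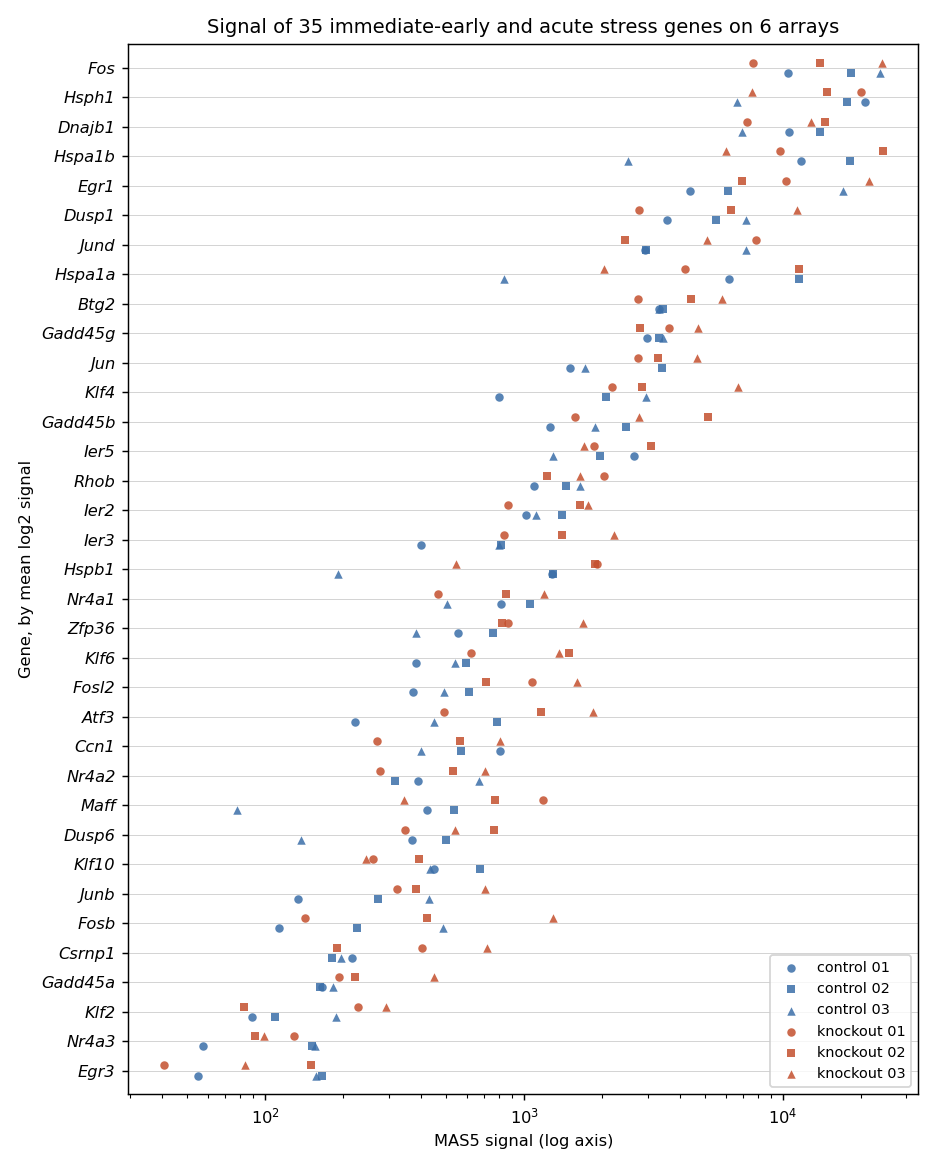
MAS5 signal on a log axis for the 35 tested members, ordered by mean log2 signal; blue symbols are control arrays, red symbols knockout arrays, and the shape gives the number. Fos, Hsph1 and Dnajb1 lie at the top, Egr3 and Nr4a3 at the bottom, and for Klf6, Ier3, Fosl2 and Zfp36 every red symbol lies right of every blue one.

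Of the early-response and feedback genes, 10 of 11 were tested, 9 with higher knockout means and a median log2 difference of 0.26. Ier3, a stress-inducible membrane protein that affects cell survival, gave 398, 814 and 802 in controls and 835, 1407 and 2226 in knockouts. The knockout signals all exceeded those of controls, with knockout 01 close to controls 02 and 03. The means were 9.32 ± 0.59 and 10.43 ± 0.71 (log2 ± SD, n = 3 each), 2.16-fold apart, with a log2 difference of 1.11 (SE 0.43) and pair values of 1.07, 0.79 and 1.47. The limma p was 0.0285 unadjusted and 0.00215 with the block (adjusted 0.506), the lowest of the members with the block. Zfp36, which encodes tristetraprolin, a protein that speeds the decay of AU-rich mRNAs, gave 555, 755 and 382 in controls and 867, 820 and 1690 in knockouts. Its groups did not overlap, its log2 difference was 0.97 (SE 0.38), and its pairs ran from 0.12 in pair 02 to 2.15 in pair 03. Csrnp1, a nuclear early-response protein, gave 216, 182 and 195 in controls and 402, 189 and 722 in knockouts. Its log2 difference was 0.94 (SE 0.47), and knockout 02 lay within the control range.

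Groups overlapped for both tested phosphatases that switch off mitogen-activated kinases. Dusp6, which acts on ERK, gave 370, 501 and 138 in controls and 345, 764 and 541 in knockouts, a log2 difference of 0.83 (SE 0.50) that was 0.28 without control 03. Dusp1, the nuclear phosphatase of the stress kinases, gave 3554, 5497 and 7184 in controls and 2769, 6309 and 11280 in knockouts, a log2 difference of 0.16 (SE 0.49). Dusp1 followed the order of Fos, with number 01 lowest and number 03 highest in each genotype, and its groups overlapped. The antiproliferative gene Btg2 was even in controls, at 3325, 3452 and 3309, and spread in knockouts, at 2749, 4414 and 5799. Ier2, Ier5 and the small GTPase gene Rhob differed by 0.22 (SE 0.34), 0.18 (SE 0.36) and 0.22 (SE 0.30), and their groups overlapped. Ccn1, a secreted matrix-associated protein formerly Cyr61, gave 805, 570 and 399 in controls and 269, 566 and 804 in knockouts, with control 01 and knockout 03 alike at the top. Its log2 difference was -0.19 (SE 0.44) through an _x_at probe set, a kind that can bind related transcripts, and its pairs ran from -1.58 to 1.01. Other bright Ccn1 probe sets gave 0.05, 0.82 and 1.68, so no direction can be given for this gene.

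Genes of the Gadd45 family, which encode small proteins that couple stress to cell-cycle arrest, were all 3 higher in knockout means. Gadd45a gave 165, 163 and 183 in controls and 192, 222 and 449 in knockouts. No knockout signal fell below a control signal, the controls were within a narrow range, and most of the difference of 0.66 (SE 0.40) came from knockout 03. Leaving that array out gave 0.28. Gadd45b gave 1260, 2477 and 1877 in controls and 1573, 5154 and 2785 in knockouts, a log2 difference of 0.65 (SE 0.44) that was positive in each pair. Gadd45g differed by 0.16 (SE 0.27).

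Signals of 4 of the 5 heat-shock members were lowest on the array numbered 03 in both genotypes, Dnajb1 being the exception in knockouts. Hspa1a and Hspa1b encode the inducible cytosolic chaperone of the heat-shock response and are near-identical copies, so their probe sets may read both genes. Hspa1a signals were 6206, 11531 and 836 in controls and 4184, 11537 and 2043 in knockouts. Hspa1b signals were 11776, 18071 and 2513 in controls and 9736, 24241 and 6022 in knockouts. In both genotypes number 02 was the highest and number 03 the lowest. The log2 differences between genotypes, 0.24 (SE 0.92) and 0.47 (SE 0.72), were smaller than their standard errors. Further bright probe sets of Hspa1b gave -0.0017 and 0.20. Hspb1, a small heat-shock protein, gave 1283, 1298 and 191 in controls and 1914, 1873 and 546 in knockouts. Each knockout array exceeded the control of its number, by 0.58, 0.53 and 1.52, while both arrays numbered 03 lay below all others. Its log2 difference was 0.87 (SE 0.76), and its unadjusted limma p was 0.282, and 0.0144 with the number as a block (adjusted 0.897). Hsph1, a nucleotide exchange factor for that chaperone, gave 20721, 17738 and 6668 in controls and 20085, 14781 and 7564 in knockouts. Dnajb1, its co-chaperone, gave 10527, 13948 and 6965 in controls and 7248, 14502 and 12774 in knockouts. Their log2 differences of -0.04 (SE 0.48) and 0.13 (SE 0.35) were close to 0, and further bright probe sets gave -0.56 for Hsph1 and -0.13 for Dnajb1.

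The Hspa1a and Hspa1b windows upstream of the transcription start show how alike these copies are. Over the 250 bases before the start, from RefSeq on GRCm38.p6, they differ at 3 positions, given in capitals, and are 98.8% identical. Both lie on the minus strand of chromosome 17, Hspa1a at chr17:34972157-34972406 and Hspa1b at chr17:34959239-34959488, and both are written 5′ to 3′.
Hspa1a: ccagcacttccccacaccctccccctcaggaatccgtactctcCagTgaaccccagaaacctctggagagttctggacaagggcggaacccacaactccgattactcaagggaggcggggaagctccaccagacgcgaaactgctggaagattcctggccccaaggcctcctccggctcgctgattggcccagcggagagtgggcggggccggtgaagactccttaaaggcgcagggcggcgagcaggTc
Hspa1b: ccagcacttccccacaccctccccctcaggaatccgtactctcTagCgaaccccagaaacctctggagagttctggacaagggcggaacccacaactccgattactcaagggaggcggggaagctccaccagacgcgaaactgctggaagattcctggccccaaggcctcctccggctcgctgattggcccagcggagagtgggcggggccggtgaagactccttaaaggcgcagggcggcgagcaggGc

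Most of the other members did not share the low signal on arrays numbered 03. Number 03 minus the mean of numbers 01 and 02, taken within a genotype, was -2.54 in controls and -1.35 in knockouts as the median of the 5 heat-shock members, and 0.14 and 0.87 as the median of the other 30 (log2). Over all genes tested the medians were 0.02 and 0.03. Of these 30 members 19 were positive in controls, 25 in knockouts and 17 in both, where 33.5% of all genes tested were positive in both. Maff (-2.61 and -1.48), Ier5 (-0.82 and -0.49) and Klf10 (-0.35 and -0.38) were among those negative in both. Knockout 03 held the highest of the 6 signals for 19 of the 35 members, none of them a heat-shock gene, and control 01 the lowest for 12. The median of log2 signal minus the gene's mean over the 6 arrays, over all 35 members, was -0.44, -0.0006 and -0.23 on controls 01 to 03 and -0.15, 0.23 and 0.64 on knockouts 01 to 03. The same median over all genes tested stayed between -0.004 and 0.03 on every array. The split by number was chosen after the values were seen.

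**Figure D3:**
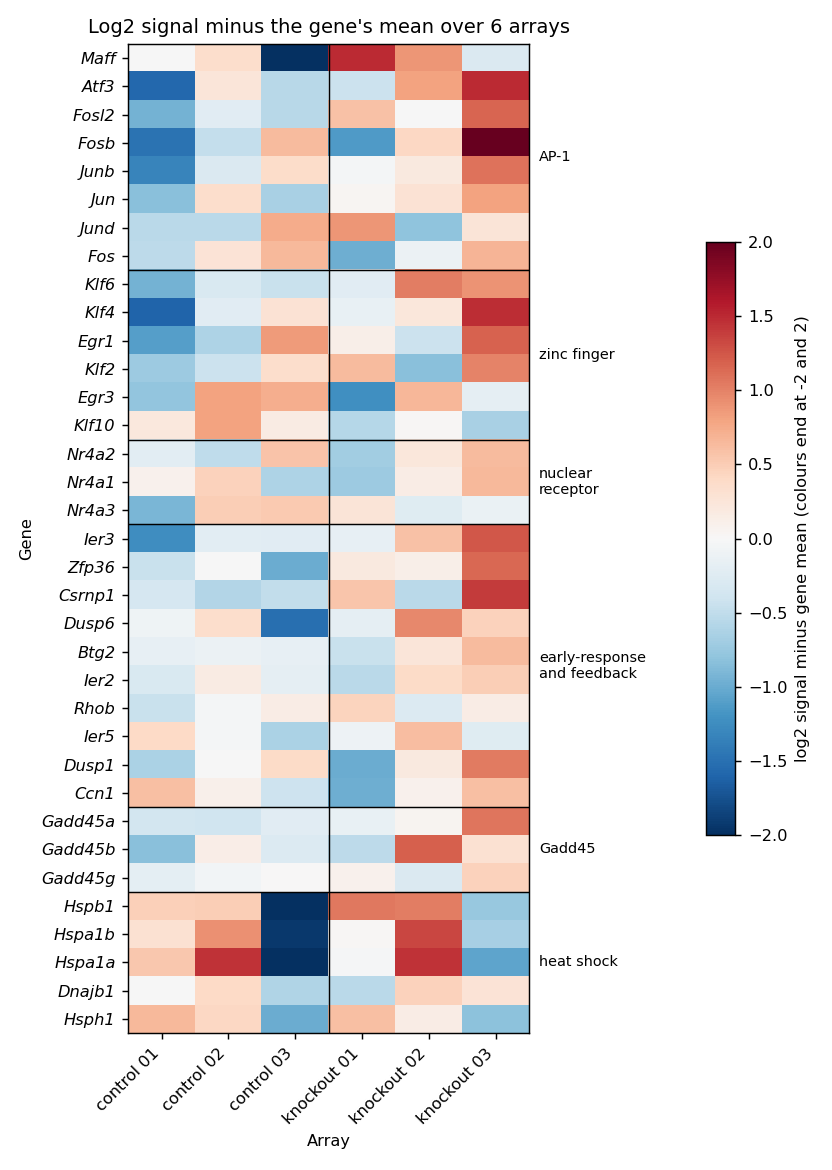
Log2 signal of each tested member minus its own mean over the 6 arrays, with arrays in columns and members grouped by role; red is above and blue below the mean, and colours end at -2 and 2. The column of knockout 03 is red for most members outside the heat-shock group, and Hspb1, Hspa1b and Hspa1a are blue on both arrays numbered 03.

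Summed signals of cell type markers also differed between arrays, and not all lists followed the same order. Summed signal of 13 acinar marker genes, which stand for exocrine tissue in the preparation, was 516697, 573848 and 166578 on controls 01 to 03 and 578392, 728908 and 14570 on knockouts 01 to 03. Within each genotype it was lowest on number 03, as was the median of the heat-shock members. This was not particular to acinar markers: the beta-cell, alpha, delta and PP, and duct sums were also lowest on number 03 in each genotype. Summed signal of 13 fibroblast and matrix markers was 5669, 9233 and 6232 in controls and 8208, 12753 and 26021 in knockouts, highest on knockout 03, where 19 members peaked. All 12 tested markers of that list and all 11 tested endothelial markers had positive log2 differences, with medians of 1.13 and 0.44. Endothelial markers summed to 10249, 9704 and 10546 in controls and 16680, 12065 and 15386 in knockouts, highest on knockout 01. The 12 beta-cell markers summed to 133765 to 180610 in controls and 110717 to 177713 in knockouts, and 8 of the 12 had negative differences, with a median of -0.22. Leukocyte markers, 11 genes, summed to 3718, 3993 and 8658 in controls and 6528, 4352 and 9372 in knockouts, highest on number 03 in each genotype. The other lists ran from 167800 to 254924 for alpha, delta and PP cells, from 10862 to 21834 for duct and from 607 to 2547 for Schwann and neural markers, and 9 of 9, 3 of 6 and 4 of 5 tested genes had positive differences. No marker was at 0. The part of these differences in the members' values was not tested, and in bulk islets fewer cells of a type and less RNA per cell cannot be told apart.

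**Figure D4:**
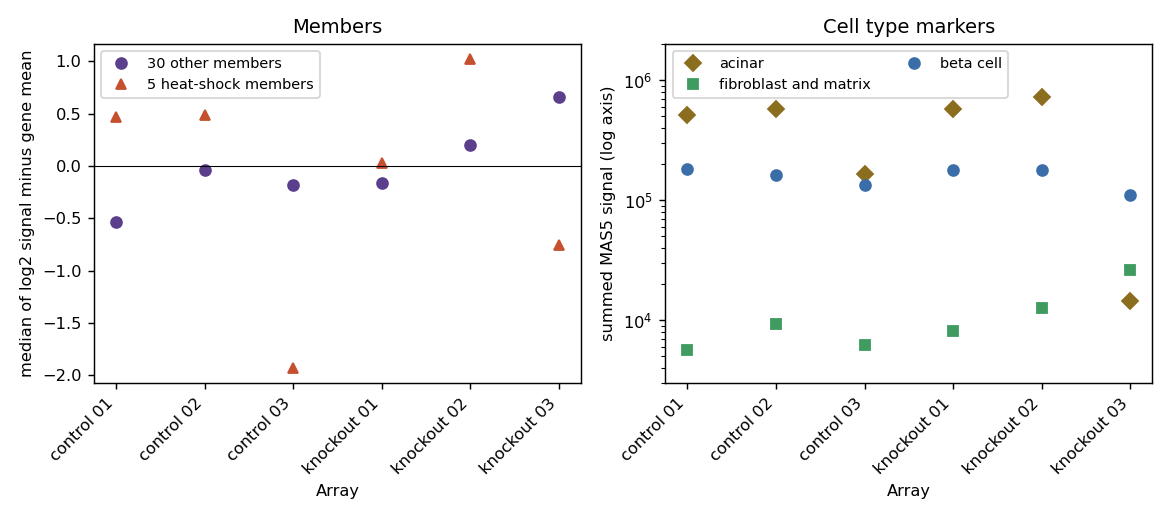
Left, median over members of log2 signal minus the gene's mean, for 5 heat-shock and 30 other tested members on each array; right, summed MAS5 signal of acinar, fibroblast and matrix, and beta-cell markers on a log axis. The heat-shock members (-1.93 and -0.76) and the acinar and beta-cell sums are lowest on both arrays numbered 03, and knockout 03 has the top values of the other members (0.66) and of the fibroblast and matrix sum.

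Variation between islet batches was wide for these genes. The median standard deviation of log2 signal was 0.56 among control arrays and 0.71 among knockout arrays for the members, against 0.36 and 0.42 for all genes tested. The range over members ran from 0.03 (Btg2) to 1.98 (Hspa1a) in controls. The members were also somewhat brighter, with a median mean log2 signal of 9.85 against 9.37. In the pairs numbered 01, 02 and 03 the median log2 difference over members was 0.32, 0.20 and 0.87, where that over all genes was 0.02, 0.01 and 0.01. Of the 35 members 20, 23 and 30 were positive in these pairs.

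Related gene lists placed beside the members showed smaller or similar medians, except for HIF targets. Over all genes tested, 2.03% were higher and 0.53% lower at an unadjusted limma p under 0.05. Regulators of immediate-early transcription (serum response factor and its partners, cyclic AMP-response factors and kinases) had 23 tested genes, 16 with positive differences, a median of 0.08, and 0 passing limma's adjusted threshold or an unadjusted p under 0.05. Elk3, a ternary complex partner of serum response factor, had their lowest p among positive differences, at 0.56 (SE 0.29), and Atf2 among negative ones, at -0.43 (SE 0.29). Other early-response and ERK feedback genes had 44 tested, 34 positive, a median of 0.37, and 0 passing in limma, with 3 higher and 0 lower at an unadjusted p under 0.05. Among them Id3, an inhibitor of basic helix-loop-helix factors, gave 244, 231 and 193 in controls and 362, 457 and 403 in knockouts without overlap, a log2 difference of 0.87 (SE 0.29), and the kinase gene Plk3 was at -0.44 (SE 0.36). NF-kB and inflammatory early genes had 15 tested, 12 positive and a median of 0.33, with Tnfaip3, a feedback inhibitor of NF-kB, at 0.49 (SE 0.29) and the receptor gene Tnfrsf12a at -0.64 (SE 0.53). None of these 15 passed in limma, and 0 had an unadjusted p under 0.05.

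Heat-shock genes outside the member list were centred near 0 between genotypes, with 25 tested, 13 positive and a median of 0.01. In limma 0 passed, and 1 was higher at an unadjusted p under 0.05, where 2.03% of all genes were. That gene was Cryab, the small heat-shock protein alpha B-crystallin, with 163, 193 and 150 in controls and 299, 408 and 1130 in knockouts, a log2 difference of 1.62 (SE 0.48) without overlap. Dnaja4 had the lowest p among negative differences, at -0.54 (SE 0.43). As for 4 of the 5 heat-shock members, most of these genes were lower on the arrays numbered 03: their median of number 03 minus the others was -0.72 in controls and -0.43 in knockouts, and 18 of 25 were negative in both genotypes, where 30.1% of all genes tested were. For comparison, 19 of 20 tested HIF targets had positive differences, with a median of 1.56. Without overlap 16 were higher and 1 (Vegfa) lower, where 4.02% and 2.69% of all genes were. None passed the adjusted limma threshold. At an unadjusted limma p under 0.05, 17 were higher and 0 lower, where 2.03% and 0.53% of all genes were. Egln3, a HIF prolyl hydroxylase, read 43.2, 52.9 and 49.0 in controls, under the array medians, and 965, 336 and 694 in knockouts. It met the filter through the knockout arrays alone, so no size is given. The counts and median of the list include Egln3 and are descriptions. Vegfa, a secreted angiogenic factor, was at -0.46 (SE 0.27). Vhl itself gave 457, 639 and 839 in controls and 344, 358 and 467 in knockouts, a log2 difference of -0.70 (SE 0.32), lower in 3 of 3 pairs with overlapping groups. Where its probes lie relative to the deleted part was not analysed here.

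Promoter sequence was read for the 33 members that the RefSeq promoter table of GRCm38.p6 holds, in windows of 250 bases before to 50 after a transcription start. The other 5 (Egr1, Egr3, Fosl1, Ier2 and Klf10) have no window there and were not searched. Motifs farther from the start were not sought for any member. The hypoxia response core ACGTG, searched on both strands, was in a window of 14 of the 33 genes, 42.4%. Of the 27025 genes in the table, tested here or not, 21.8% hold it. Many of those were not tested, so 21.8% is not the matching share for the members. Among all tested genes with a window 2814 held the core and 6675 did not, and among tested members 12 did and 19 did not. Shares given for the other motifs are likewise over all genes in the table. The cyclic AMP response element TGACGTCA was in 3 (Btg2, Dusp1 and Maff) against 2.03% of all, the AP-1 site TGAGTCA or TGACTCA in 1 (Csrnp1) against 5.95%, and the CArG box bound by serum response factor in 2 (Egr2 and Zfp36) against 1.81%. A heat-shock element of 3 alternating units, a motif added after the others and counted only where all 3 units matched exactly, was in 1 (Hsph1) against 0.662%. Elements with an imperfect unit were not counted. The search therefore cannot tell whether Hspa1a, Hspa1b or other members hold a looser heat-shock element. Each of these motifs was sought on both strands, and where ACGTG meets its reverse complement in the overlapping run CACGTG both count as 1 gene. Tested members with the hypoxia core had a median log2 difference of 0.43 (12 genes) and those without it 0.53 (19 genes), where all tested genes in the table gave -0.01 and 0.01. A match is a description of letters and no evidence of binding.

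The windows of Klf6, Ier3, Maff and Zfp36 are shown as examples of members with large positive differences whose windows hold a motif. Atf3 and Fosl2, with larger differences than Klf6, hold none of these motifs in their windows. Klf4, with a larger difference than Zfp36, holds a hypoxia core and is not shown. Each gives the 250 bases before the start, 5′ to 3′ along the gene, with motif matches in capitals. Klf6 lies at chr13:5861239-5861488 on the plus strand and holds CACGTG, a single stretch that reads as the hypoxia core on both strands. Ier3 lies at chr17:35821463-35821712 on the plus strand, with ACGTG on the strand shown only. Maff lies at chr15:79347270-79347519 on the plus strand, with a single CACGTG stretch and a cyclic AMP element. Zfp36 lies at chr7:28379229-28379478 on the minus strand with a CArG box. Maff has further starts in the table, whose windows hold none of these motifs.
Klf6: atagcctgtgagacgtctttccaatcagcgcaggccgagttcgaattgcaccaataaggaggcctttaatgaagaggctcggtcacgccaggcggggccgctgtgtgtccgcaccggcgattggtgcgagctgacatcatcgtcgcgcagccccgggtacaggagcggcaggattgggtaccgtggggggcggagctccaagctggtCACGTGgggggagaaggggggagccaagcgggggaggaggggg
Ier3: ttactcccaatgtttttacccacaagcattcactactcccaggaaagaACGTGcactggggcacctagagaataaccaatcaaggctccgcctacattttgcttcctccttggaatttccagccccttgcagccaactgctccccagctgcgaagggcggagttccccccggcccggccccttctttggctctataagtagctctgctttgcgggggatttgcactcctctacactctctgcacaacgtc
Maff: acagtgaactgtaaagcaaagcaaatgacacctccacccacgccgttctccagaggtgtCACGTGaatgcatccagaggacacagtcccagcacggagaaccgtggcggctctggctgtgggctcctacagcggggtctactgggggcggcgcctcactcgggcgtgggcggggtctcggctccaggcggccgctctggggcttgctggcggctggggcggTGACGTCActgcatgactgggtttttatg
Zfp36: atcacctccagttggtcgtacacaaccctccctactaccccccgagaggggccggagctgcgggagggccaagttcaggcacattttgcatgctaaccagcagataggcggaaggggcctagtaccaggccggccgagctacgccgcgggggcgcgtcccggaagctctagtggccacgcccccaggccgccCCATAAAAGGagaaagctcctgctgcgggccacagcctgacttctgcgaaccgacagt

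The 3 members too dim to test gave no common direction. Egr2 is given above. Fosl1, which encodes Fra-1, read 19.5, 61.8 and 207 in controls and 83.1, 19.3 and 13.4 in knockouts, with control 03 the 1 array above its median signal (two-sided exact permutation p 0.4). Dusp2, a nuclear phosphatase best known from immune cells, read 84.9, 99.0 and 59.4 in controls and 165, 122 and 48.9 in knockouts, a log2 difference of 0.33 (two-sided exact permutation p 0.6).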

How the data were processed

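Per the labels, RNA was amplified before labelling. The deposited values are linear signal intensity, 1 per probe set and array, and the submitters' processing notes name GCOS 1.4 and MAS5. Each array had a 2% trimmed mean of 500.003, a common scale. Array medians were 102 to 123, no signal was at or below 0, and detection calls were not used here. Precision is limited by having 3 arrays a group.

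Of 45101 probe sets, 64 controls were left out. Of the rest 34945 had 1 gene symbol, 932 several and 9160 none in the platform annotation. Symbols were checked through Entrez identifiers against RefSeq (GRCm38.p6), which matched 34741 and changed 0. A gene's probe set of highest mean log2 signal stood for it, including the _x_at kind (585 of 11703 tested genes). Log2 signals, with no value added, were fitted with limma 3.58.1 under R 4.3.3 (lmFit, eBayes with an intensity trend; 3 against 3 arrays), Benjamini-Hochberg adjusted over all 11703 genes, threshold 0.05. The fit was run on simulated independent values with planted changes larger than the difference of any tested member. That run checked the code and does not measure how well differences of the members' size are found.

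Deviations from the group means over those genes correlated at 0.137, 0.41 and 0.42 within same-numbered pairs, all above 0.1. Control 01 correlated with knockout 02 at 0.141, slightly more than with knockout 01. These values therefore set the same-numbered pair apart for numbers 02 and 03 and not for control 01. Samples were paired by their shared number, age and recorded sex.

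Members, lists and tests were chosen with earlier results of these data known. Signals are printed for members that did not overlap or had an unadjusted p under 0.05, the 4 highest and 4 lowest differences, the 4 of highest and 2 of lowest mean signal, and Fos, Jun and Egr1; members named beyond that were added after their values were seen. Related lists are shown by their lowest p in each direction. Alternatives were leaving out arrays or pairs, the replicate block, a pseudocount of 16, quantile normalization, other choices of probe set, other filters and no trend.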

Additional observations from a re-analysis of the deposited data

How the results depend on the processing

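Under 17 alternatives no tested member passed an adjusted p of 0.05, the lowest being 0.506, and the median log2 difference over members stayed positive, from 0.28 without knockout 03 to 0.58 without the pair numbered 01. Of 35 tested members 19 kept their direction throughout, and 43 of 587 member values changed sign, all of them under the settings given below. Klf10 (-1.01 to -0.59), Klf6 (0.89 to 1.52), Fosl2 (0.86 to 1.45), Ier3 (0.76 to 1.47) and Zfp36 (0.64 to 1.21) were among the 19, with ranges for leaving out single arrays. Beyond those ranges, Fosl2 was at 0.62 with the mean of probe sets and 1.62 without pair 02. Zfp36 was at 0.38 without pair 03 and 1.39 without pair 02.

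With the replicate block 13 members were higher at an unadjusted p under 0.05; without the pair numbered 03 there was 1, and without single arrays there were 1 to 8. Genes passing over all genes numbered 1 with signal above the median on all 6 arrays, 0 without the pair numbered 01 or 03, 5 without pair 02, and 0 to 4 without single arrays. Passing genes of the related lists numbered 2 with the mean of probe sets, 3 without pair 02 and 0 to 2 without single arrays, against 0.

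With the mean of probe sets Ccn1 was at 0.59 and Jund at -0.21, and without _x_at probe sets Ccn1 was at 0.82. Without pair 01 Ccn1 was at 0.50, Jund at -0.38 and Rhob at -0.12. Without pair 02 Hsph1 was at 0.068, Ier5 at -0.052, Nr4a2 at -0.21 and Nr4a3 at 0.26. Without pair 03 Dnajb1 was at -0.24, Dusp1 at -0.081, Hspa1a at -0.28, Ier2 at -0.0047, Nr4a1 at -0.56 and Nr4a3 at 0.22.

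Without single arrays, values ranged from -0.54 to 0.25 for Ccn1, -0.14 to 0.43 for Dnajb1, -0.31 to 0.70 for Dusp1, -0.68 to 0.15 for Fos, -0.024 to 0.35 for Gadd45g, -0.87 to 1.02 for Hspa1a, -0.38 to 1.05 for Hspa1b, -0.044 to 1.47 for Hspb1, -0.55 to 0.35 for Hsph1, -0.091 to 0.43 for Ier5, -0.17 to 0.68 for Jund, -0.26 to 0.42 for Nr4a1, -0.18 to 0.49 for Nr4a2 and -0.54 to 0.17 for Nr4a3. The causes were not tested. The replicate block changed no call.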
